A study of Mus musculus with 96 samples.

Results

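The cells of the series were divided by 1 gene, Cd5. Of 96 EL4 cells, 95 had at least 3000 genes with TPM above 0 and were kept, and 1 cell of shLuc #2, with 81 genes, was left out. Cd5 had a TPM above 0 in 67 of the 95 cells (cells with Cd5 reads) and a TPM of 0 in 28 (cells without Cd5 reads), and these classes were compared for all other genes. EL4 is a lymphoma line of T-lymphocyte origin from C57BL/6N mice (C57BL/6 in the labels). The cells were infected with viral particles encoding GFP and a short hairpin RNA (shRNA) and sorted for GFP. The shRNA targeted luciferase in the control cultures shLuc #1 and shLuc #2 (labelled WT1 and WT2) and Ctcf in shCTCF #1 and shCTCF #2 (labelled CTCFKD1 and CTCFKD2), which are knockdowns, not deletions. Each culture was loaded on its own Fluidigm C1 circuit and 24 of its cells were sequenced, so culture and circuit cannot be told apart. Cultures numbered 1 came from the first experiment and cultures numbered 2 from a second knockdown.

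CD5 is a surface glycoprotein of the scavenger receptor cysteine-rich family, found on T cells and on a subset of B cells. It is associated with the T-cell receptor (TCR), is phosphorylated by the kinase Lck after receptor engagement, and dampens receptor signalling. Its level on thymocytes and naive T cells is known to follow the strength of TCR signalling, and for that reason it is commonly used as a marker of that strength. Cd5 lies on the minus strand of chromosome 19 at chr19:10717116-10739002 (GRCm38), near its paralog Cd6, with A430093F15Rik between them.

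The classes were chosen by the Cd5 TPM of each cell, so the share of cells with Cd5 reads and the level of Cd5 in them are given as a description. In shLuc #1, 14 of 24 cells had Cd5 reads (58.3%, exact 95% binomial interval 36.6 to 77.9%), with a lowest TPM of 2.38, a median of 247 and a highest of 916. In shLuc #2, 15 of 23 cells had them (65.2%, 42.7 to 83.6%), with a lowest TPM of 3.51, a median of 110 and a highest of 700. In shCTCF #1, 16 of 24 cells had them (66.7%, 44.7 to 84.4%), with a lowest TPM of 15.8, a median of 214 and a highest of 661. In shCTCF #2, 22 of 24 cells had them (91.7%, 73 to 99.0%), with a lowest TPM of 22.99, a median of 122 and a highest of 398. The culture with the largest share of cells with Cd5 reads was thus not one with a high level of Cd5 where it was found. Over all cells, with those at 0 included, the mean Cd5 TPM was 158 ± 228 (SD, n = 24) in shLuc #1, 129 ± 212 (n = 23) in shLuc #2, 152 ± 182 (n = 24) in shCTCF #1 and 141 ± 111 (n = 24) in shCTCF #2. Means over 23 or 24 cells vary less than single cells, so their narrow range beside the SD does not show that the cultures were alike. The intervals cover the sampling of cells within a culture only, not the spread between cultures.

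**Figure D1:**
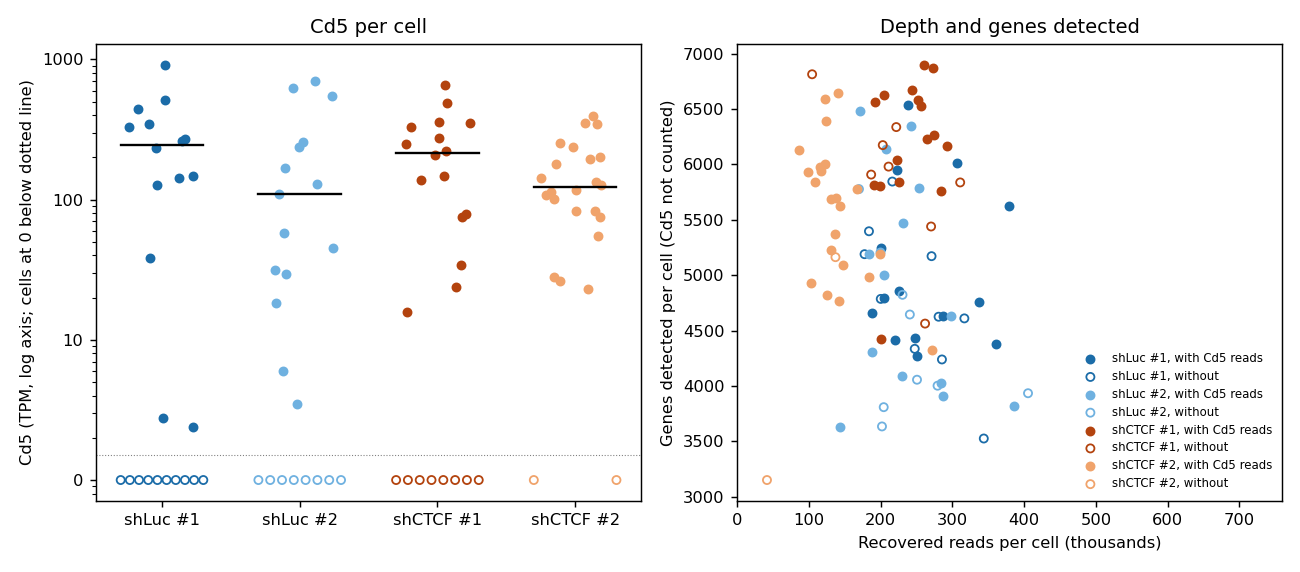
Left, Cd5 (TPM, log axis) in each of the 95 cells by culture, filled for cells with Cd5 reads, open and set below the dotted line for cells at 0, with a line at the median of the filled points (247, 110, 214 and 122 from left to right). Right, genes detected per cell against recovered reads per cell, with the same colours; the shallowest cell is an open point of shCTCF #2 with 41591 reads and the deepest an open point of shLuc #2 with 405404.

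Most cells with Cd5 reads lay far from the border between the classes. Whole reads could be recovered from the TPM values, and the cells with Cd5 reads held a median of 28 Cd5 reads (1 to 234). The values just inside the border were TPM of 2.38, 2.78, 3.51 and 6.02, each a single read and all in shLuc cultures. The next cell by TPM had 4 reads and a TPM of 15.8. By reads, the next were cells of 3 reads, 1 in shLuc #2 at a TPM of 18.4 and 1 in shCTCF #2 at 22.99. In all, 16 of the 67 cells held fewer than 10 Cd5 reads and 25 held at least 50. A cell without Cd5 reads allows, at 3 reads of its total, between 7.40 and 72.1 RPM (reads scaled to the total of the cell) of Cd5, depending on its depth, and 17 of the 67 cells with Cd5 reads lay below 72.1 RPM. That limit was set by 1 cell of shCTCF #2 with 41591 reads. Without it the highest limit was 28.7 RPM, and 10 cells with Cd5 reads lay below it. When every cell was thinned to 80000 reads, 94 cells remained and 62 of them (65.96%) still had a Cd5 read, 12 of 24 in shLuc #1, 13 of 23 in shLuc #2, 15 of 24 in shCTCF #1 and 22 of 23 in shCTCF #2.

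For its level, Cd5 was found in few cells. The median TPM of Cd5 over the cells where it was found was 143, and 1388 of the other 11979 genes tested had a median where found at least as high. Of these 1388 genes, 1078 (77.7%) were found in a larger share of the cells than the 70.5% of Cd5, their median share was 93.7%, and 263 were found in every cell. The other 310 genes were found in the same or a smaller share of cells, so Cd5 was not alone in this pattern.

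**Figure D2:**
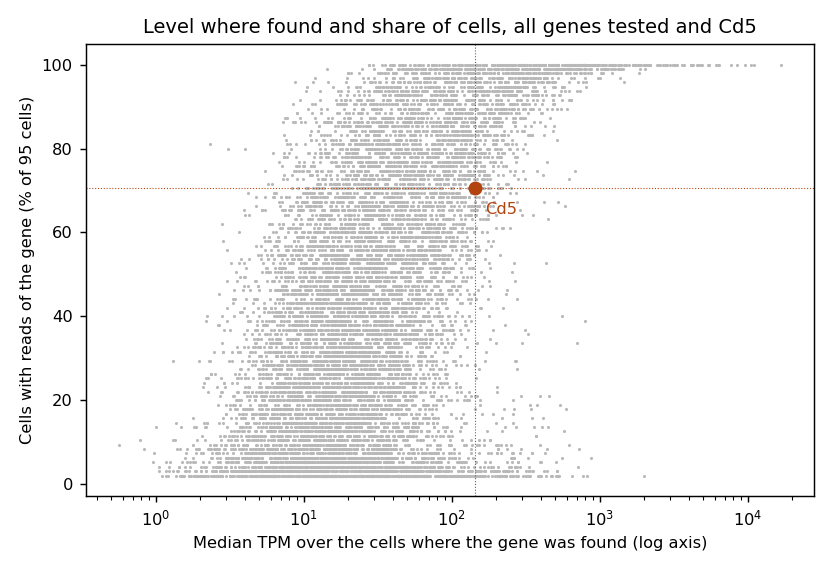
Share of the 95 cells with reads of a gene (%) against its median TPM over the cells where it was found (log axis), for the 11979 genes tested (grey) and Cd5 (red, with dotted lines at 143 TPM and 70.5%). Most genes to the right of the vertical line, 1078 of 1388, lie above the horizontal one.

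Both classes carried the markers of T cells. Cd3d, Lck and Tcf7 were found in all 95 cells, Cd3e, Cd3g and Thy1 in 67 of 67 cells with and 27 of 28 without Cd5 reads, and Cd28 in 64 of 67 and 22 of 28. Other T-cell genes were found in fewer cells, Cd247, the CD3 zeta chain, in 13 of 67 and 4 of 28, and the T-lineage factor gene Bcl11b in 38 of 67 and 17 of 28, with a mean TPM of 9.07 and 24.02. The mean TPM of Cd3d, a chain of the TCR complex, was 2162 over the cells with and 2127 over those without Cd5 reads. That of Lck was 1439 and 1073. Cd2 was found in 58 of 67 and 21 of 28 cells, with a mean of 427 and 287. Means in this paragraph pool the cultures, and shCTCF #2 gave 22 of the 67 cells with but 2 of the 28 without Cd5 reads. Of the markers of other cells, Cd79b, Ms4a1, Pax5 and Ebf1 of B cells, Lyz2, Mpo and Cd14 of myeloid cells and Hbb-bs of erythroid cells were at 0 in every cell. Pecam1, a marker of endothelium that leukocytes also carry, was found in 35 of 67 cells with and 13 of 28 without Cd5 reads (mean TPM 19.1 and 31.96), Cd68 of macrophages in 16 and 4, and Cd22 of B cells in 5 and 3. The genes for the constant regions of the TCR beta chain, Trbc1 and Trbc2, are not listed in the table.

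The median number of genes detected, Cd5 itself not counted, was higher in cells with Cd5 reads of each culture. In shLuc #1 the median was 4776 genes in the 14 cells with Cd5 reads (4274 to 6533) and 4705.5 in the 10 cells without (3525 to 5846). In shLuc #2 it was 5006 (3629 to 6483) and 4029 (3634 to 5778), in shCTCF #1 6245 (4426 to 6901) and 5945 (4563 to 6815), and in shCTCF #2 5689 (4324 to 6642) and, for its 2 cells without Cd5 reads, 4156.5 (3150 and 5163). The ranges of the classes overlapped in every culture. The difference of medians was positive in 4 of 4 cultures, between 70.5 and 1532.5 genes with a mean of 720, and its exact permutation p, two-sided and flipping the classes within cultures, was 0.12, the smallest that 4 cultures can give. At an equal depth of 80000 reads per cell the differences were 92.5, 940.5, 62 and 394.5 genes, the last with 22 cells set against 1.

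Depth itself did not separate the classes in 1 direction. The difference of medians in recovered reads per cell, cells with minus cells without Cd5 reads, was -16098 and -6226.5 in the shLuc cultures and 31315 and 41795 in the shCTCF cultures, each in the order #1, #2 (mean 12696, exact permutation p = 0.50, two-sided). The 2 cells without Cd5 reads in shCTCF #2 had 41591 and 137015 reads, while the cells with Cd5 reads of that culture had between 86190 and 271300. Because a class of 2 cells gives no stable mean, shCTCF #2 did not enter the comparison of genes, which rests on 45 cells with and 26 without Cd5 reads in 3 cultures. Values of shCTCF #2 are given beside the others for many of the genes and lists below, where each rests on those 2 cells.

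No gene passed the test between the classes. For each culture and class the mean TPM of a gene was taken over the cells, log2(mean TPM + 1) was compared within cultures by limma, and a difference below is that of cells with minus cells without Cd5 reads on this scale. At a Benjamini-Hochberg adjusted p under 0.05, limma called 0 of 11979 genes higher (0%) and 0 lower (0%), with a smallest adjusted p of 0.840. At an unadjusted p under 0.05 there were 415 genes with a higher mean in cells with Cd5 reads (3.46%) and 128 with a lower one (1.07%). A difference above 0 was fitted for 7129 genes (59.5%) and below 0 for 4795 (40%), and the median over all genes was 0.16, so values of genes and lists are to be read against 0.16 and not against 0. By culture that median was 0.00 in shLuc #1, 0.11 in shLuc #2 and 0.07 in shCTCF #1, and 1.00 in shCTCF #2. As the mean over cells of log2(TPM + 1) the median over all genes was 0.11 and the unadjusted counts were 504 and 104. With the number of genes detected also regressed out of each gene, the median was 0.00 and the counts were 286 and 228. Values below with genes detected regressed out are on that scale too, not on the scale of the main fit. A gene had the same sign in the 3 cultures, higher for 1770 genes (14.8%) and lower for 972 (8.11%). The fit has 2 residual degrees of freedom, which limits what it can call.

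The 10 genes with the highest statistics among those found in at least 20 cells had a higher mean in cells with Cd5 reads in each of the 3 cultures, which the choice by statistic favours. The limit of 20 counted all 95 cells, 67 of them with Cd5 reads. Genes found mainly in cells with Cd5 reads therefore met it more easily than genes found mainly in the others. The 10 genes had differences of 0.69 to 5.75, unadjusted p of 0.0021 to 0.0056 and an adjusted p of 0.840 in limma. Perp, a membrane protein induced by p53, had the smallest difference and the highest level. Its mean TPM was 1076 without and 1656 with Cd5 reads in shLuc #1, 1047 and 1577 in shLuc #2, 999 and 1814 in shCTCF #1, and 840 and 1811 in shCTCF #2 (0.69 ± 0.13, SE, n = 3 cultures). Single cells of the classes overlapped widely, since Perp ran from 20.8 to 2290 TPM in the cells of shLuc #1 without and from 21.1 to 8386 in those with Cd5 reads. The medians of Perp over cells were 927 without and 875 with Cd5 reads in shLuc #1, the opposite order of the means, and 510 and 813 in shLuc #2 and 295 and 1707 in shCTCF #1. Cytip, which binds cytohesins and is expressed in lymphocytes, had a mean TPM of 97.5 and 224 in shLuc #1, 174 and 444 in shLuc #2, 36.4 and 108 in shCTCF #1, and 1.33 and 232 in shCTCF #2 (1.36 ± 0.24, SE). The medians over cells were 62.4 and 126, 34.04 and 116, and 36.1 and 98.1 TPM in the 3 cultures, and single cells with Cd5 reads reached 1439 in shLuc #1 and 4090 in shLuc #2. With the highest cell of each class left out, a setting chosen after the values were seen, Cytip had means of 79.1 and 130, 47.1 and 184, and 30.5 and 94.9. Nabp1, a protein that binds single-stranded DNA, had mean TPM of 5.71 and 41.7, 30.6 and 176, and 12.6 and 45.03 in the 3 cultures, and 0 and 117 in shCTCF #2. Tm2d3 had 15.8 and 175, 113 and 329, and 61.3 and 315, but 175 and 145 in shCTCF #2.

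Of these 10 genes, 6 were found in at most 30 of the 95 cells, so that few cells set their means. Il17f, a cytokine of the interleukin 17 family, was found in 10 of 45 cells with and 4 of 26 without Cd5 reads in the 3 cultures. In shLuc #1 it was at 0 in all but 2 cells with Cd5 reads, of which the highest had a TPM of 11227, and in all but 1 cell without, at 11.3. In shLuc #2 the highest cell with Cd5 reads had 13139 and the highest without had 423, and in shCTCF #2 a cell with Cd5 reads reached 19917. The sialyltransferase gene St3gal4 was found in 17 of 45 cells with and 2 of 26 without Cd5 reads, and in these cultures its mean TPM without Cd5 reads was at most 0.66 and with them 32.3, 52.1 and 37.8. The synaptic vesicle glycoprotein gene Sv2a was found in 16 and 1, the ADP-ribosyltransferase gene Parp10 in 19 and 3, Tlcd1 in 10 and 1, and the small nucleolar RNA Snord65, which lies inside 2410006H16Rik on the same strand, in 14 and 1 of these cells. Each of the 5 genes after Il17f was at 0 in all cells without Cd5 reads of at least 1 culture, so the size of its fitted difference depends on the pseudocount.

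**Figure D3:**
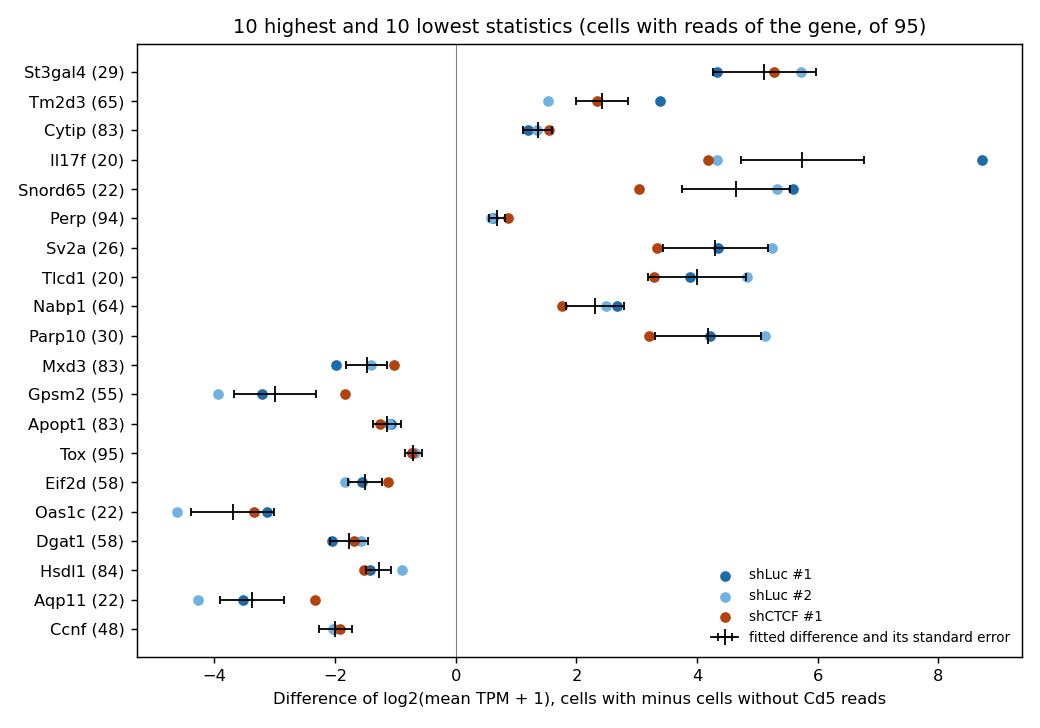
Difference of log2(mean TPM + 1), cells with minus cells without Cd5 reads, for 10 genes at either end of the limma statistic, with the number of the 95 cells with reads of the gene. Coloured points are the 3 cultures of the fit, black bars the fitted difference with its standard error; the differences run from 0.69 (Perp) to 5.75 (Il17f) above 0 and from -0.71 (Tox) to -3.70 (Oas1c) below 0, each with an adjusted p of 0.840.

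The 10 genes with the lowest statistics had a lower mean in cells with Cd5 reads in each of the 3 cultures, which the choice again favours, but a higher one in shCTCF #2, where the median over all genes was 1.00. Their differences ran from -0.71 to -3.70 with unadjusted p of 0.00095 to 0.0083. Tox, an HMG-box factor of T-cell development, was found in all 95 cells and had a mean TPM of 906 without and 547 with Cd5 reads in shLuc #1, 1077 and 676 in shLuc #2, and 727 and 441 in shCTCF #1 (-0.71 ± 0.14, SE). In shCTCF #2 the mean was 381 over the 2 cells without, at 21.1 and 740 TPM, and 650 over the 22 cells with Cd5 reads. Within each of the 3 cultures the cells of the classes overlapped, with medians without and with Cd5 reads of 1098 and 451, 979 and 545, and 804 and 423. Ccnf encodes cyclin F, the substrate-binding part of a ubiquitin ligase of the cell cycle. Mean TPM of Ccnf was 168 and 40.7 in shLuc #1, 139 and 33.1 in shLuc #2, and 228 and 59.3 in shCTCF #1, against 9.70 and 71.1 in shCTCF #2. Gpsm2, which orients the mitotic spindle, and Mxd3, a partner of MAX, had differences of -3.00 ± 0.68 and -1.47 ± 0.34 (SE). The difference of Mxd3 rested on few cells, since 1 of the 8 cells without Cd5 reads of shLuc #2 stood at 1050 TPM beside a median of 32.01, and 1 of the 8 of shCTCF #1 at 506. The medians of Mxd3 in shCTCF #1 were 45.7 without and 47.1 with Cd5 reads, and without the highest cell of each class its means there were 52.3 and 42.9.

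The remaining 6 of these genes have unrelated known roles. Apopt1, an assembly factor of cytochrome oxidase, had near equal values in the 3 cultures, with mean TPM of 204 and 96.3, 212 and 98.0, and 234 and 98.1. Hsdl1, a member of the short-chain dehydrogenase family, had 494 and 184, 1217 and 657, and 646 and 223, but 284 and 446 in shCTCF #2. Dgat1, the enzyme of the last step of triglyceride synthesis, had 92.2 and 21.4, 191 and 63.6, and 152 and 46.5, with 51.4 and 64.4 in shCTCF #2. Eif2d, a translation initiation factor, had 145 and 48.9, 259 and 71.5, and 153 and 69.9, with 0 and 118 in shCTCF #2. Aqp11, an aquaporin, and Oas1c, a member of a family of close paralogs whose shared reads were not counted, were found in 22 cells each.

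Genes that work with the TCR had, as a list, a higher median in cells with Cd5 reads than all genes, although no member passed the test. Of 36 genes of the TCR complex and its proximal signalling, the fitted difference was above 0 for 30 and below 0 for 6, with a median of 0.46 beside 0.16 over all genes. The median was 0.07 in shLuc #1, 0.51 in shLuc #2 and 0.29 in shCTCF #1, beside 0.00, 0.11 and 0.07 over all genes, and 12 genes were higher in each of the 3 cultures. In shCTCF #2 it was 1.66, beside 1.00 over all genes. As the mean over cells of log2(TPM + 1) it was 0.54 beside 0.11 over all genes. With genes detected regressed out it was 0.40 beside 0.00. Lck, the kinase that phosphorylates CD5 and the CD3 chains, had the lowest unadjusted p of the list, 0.021. Its mean TPM was 1183 and 1705 in shLuc #1, 1196 and 1949 in shLuc #2, 1068 and 1275 in shCTCF #1, and 55.9 and 1042 in shCTCF #2 (0.50 ± 0.15, SE). Lck in single cells of shLuc #1 lay between 243 and 2403 TPM without and between 839 and 3663 with Cd5 reads, so the classes overlapped, while the 2 cells of shCTCF #2 without Cd5 reads, at 33.3 and 78.5, lay below all 22 with them. Ptprc, the phosphatase CD45, which activates Lck, had mean TPM of 614 and 832, 945 and 1158, and 391 and 628, with 314 and 1008 in shCTCF #2 (0.47 ± 0.16, SE). The 15 genes for known partners of CD5 signalling, some of them members of the TCR list, had a fitted median of 0.19, close to the 0.16 over all genes, with 10 above 0. By culture, however, their median was 0.51, 0.24 and 0.38, beside 0.00, 0.11 and 0.07 over all genes. As the mean over cells of log2(TPM + 1) it was 0.29 beside 0.11, with 12 above 0. With genes detected regressed out it was 0.19 beside 0.00. Among these partners Ptpn6, the phosphatase SHP-1, had 0.94, 0.53 and -0.15 in the 3 cultures.

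Summed over the TCR list, the cells of the classes overlapped in each culture. The summed TPM had medians of 12882 with and 11052 without Cd5 reads in shLuc #1, 13131 and 9196 in shLuc #2, 9433 and 8665 in shCTCF #1, and 10993 and 6019 in shCTCF #2. In shLuc #1 the cells ranged from 9519 to 23256 with and from 4227 to 22255 without Cd5 reads. In shCTCF #2 they ranged from 6062 to 19887 and, for 2 cells, stood at 4690 and 7348. Within the cells with Cd5 reads, Spearman's rho of this sum with the Cd5 level was 0.36 over 14 cells of shLuc #1, 0.11 over 15 of shLuc #2, 0.14 over 16 of shCTCF #1 and 0.48 over 22 of shCTCF #2, where values of a cell share their library and total.

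T-cell surface molecules gave a similar picture. Of 38 genes, 29 had a difference above 0 and 9 below, beside 59.5% above 0 over all genes. The median was 0.53, beside 0.16 over all genes. By culture it was 0.24, 0.93 and 0.28, beside 0.00, 0.11 and 0.07, and in shCTCF #2 it was 2.16 beside 1.00. With genes detected regressed out it was 0.36 beside 0.00, with 26 above 0. With the classes divided at a Cd5 TPM of 10 it was 0.34 beside 0.12, with 24 above 0 and 14 below. Cd52, a small anchored glycoprotein of lymphocytes, had mean TPM of 154 and 471 in shLuc #1, 425 and 883 in shLuc #2, and 353 and 429 in shCTCF #1 (0.98 ± 0.30, SE). The highest cell with Cd5 reads of shLuc #2 had a Cd52 TPM of 5510, and the medians over cells of that culture were 79.5 without and 25.3 with Cd5 reads, the opposite order of the means. Pdcd1, the inhibitory receptor PD-1, had 2078 and 2107, 1013 and 2166, and 993 and 1977 (0.70 ± 0.25, SE), and its difference in shLuc #1 was 0.02. In shCTCF #2 neither Cd52 nor Pdcd1 had a read in the 2 cells without Cd5 reads, against 599 and 1863 TPM in those with them. Thy1, the surface protein CD90, had differences of 0.02, 0.90 and 0.57, and the costimulatory receptor gene Cd28 had 0.62, 0.95 and 0.09 at mean levels of 10.2 to 35.8 TPM. Cd6 was found in only 8 of the 95 cells, 1 of them without Cd5 reads in the 3 cultures, so its values give no direction.

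Genes induced by TCR signalling did not lie on 1 side in the 3 cultures. The median over 29 of them was 0.50, with 22 above 0, but 0.59 in shLuc #1, 0.40 in shLuc #2 and -0.06 in shCTCF #1. As the mean over cells of log2(TPM + 1) it was 0.13, beside 0.11 over all genes. With genes detected regressed out it was 0.11, beside 0.00. The immediate early gene Egr1 had mean TPM of 254 without and 409 with Cd5 reads in shLuc #1 and 542 and 799 in shLuc #2, but 193 and 89.4 in shCTCF #1 and 797 and 185 in shCTCF #2. Junb, a subunit of the AP-1 factor, had 155 and 165, 143 and 39.8, and 31.9 and 18.8. Myc had 177 and 286, 208 and 254, and 257 and 387 (0.52 ± 0.20, SE, unadjusted p = 0.052), and Zfp36, which promotes decay of cytokine mRNAs, had differences of 2.80, 0.85 and 0.10. Over 36 T-lineage transcription factors the median was 0.15, close to that of all genes, with 23 above 0. Beside Tox, Tox2 had the lowest unadjusted p, with mean TPM of 2.08 and 44.6, 14.3 and 54.95, and 1.27 and 27.2, but it was found in 20 cells. Gata3, a factor that directs T helper fate, had mean TPM of 796 and 943, 555 and 358, and 566 and 573, with a different sign in shLuc #2 (-0.12 ± 0.22, SE).

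**Figure D4:**
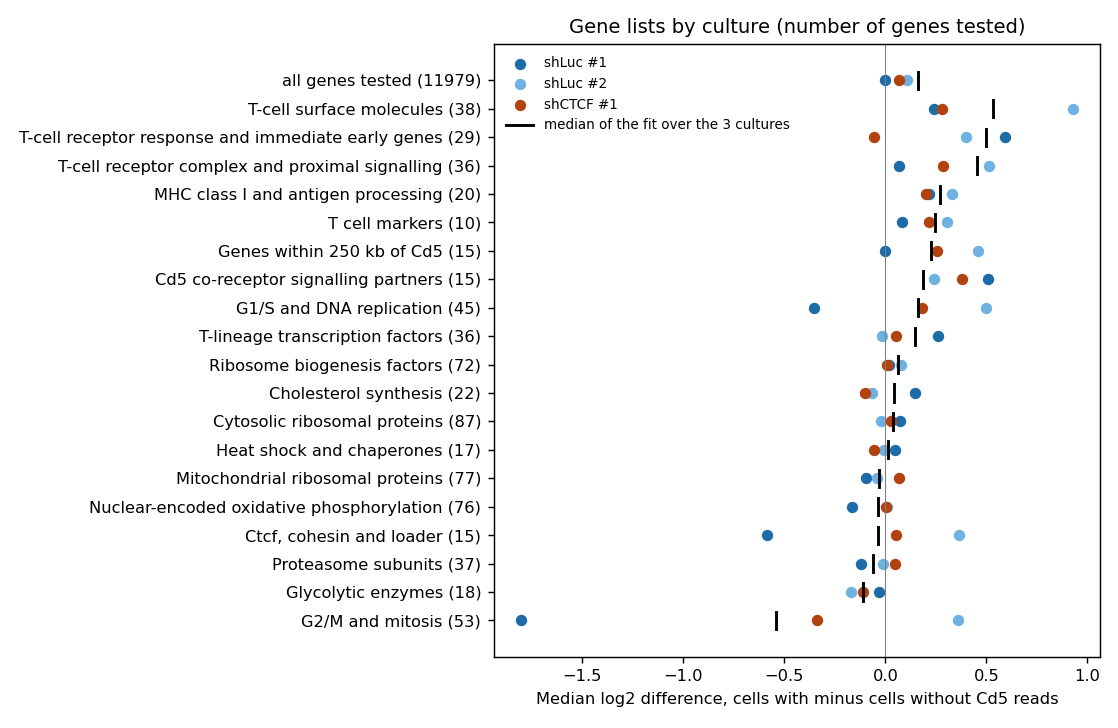
Median difference of log2(mean TPM + 1), cells with minus cells without Cd5 reads, of each gene list with at least 10 tested genes (number in brackets) in shLuc #1, shLuc #2 and shCTCF #1 (points), with the median of the fitted differences over the list (bar) and the same for all genes tested on top (0.16). T-cell surface molecules have the highest bar at 0.53 and G2/M genes the lowest at -0.54, with shLuc #1 at -1.80 and shLuc #2 at 0.36.

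The genes of mitosis had the lowest median among lists of at least 10 genes, and the 2 shLuc cultures had opposite signs. Of 53 genes of G2/M and mitosis, 47 had a fitted difference below 0 and 6 above, with a median of -0.54. In shLuc #1 the median was -1.80 and 51 of 53 genes were lower in cells with Cd5 reads, in shLuc #2 it was 0.36 and 37 were higher, and in shCTCF #1 it was -0.34 and 35 were lower. Without shLuc #1 the median was 0.11, with 32 genes above 0. In shCTCF #2 it was 1.72 with 38 above 0, and with all 4 cultures in the fit it was 0.06 with 29 above and 24 below 0, beside 0.39 over all genes. In the 3 cultures it was -1.12 with genes detected regressed out, with 1 gene above 0 and 52 below, -1.29 with cells as replicates and genes detected as a covariate, and -0.76 with the classes divided at a Cd5 TPM of 10, where all 53 were below 0. The summed TPM of the list showed the cells behind these values. In shLuc #1 it had a median of 1454 (177 to 18550) in cells with and of 14589 (141 to 24947) in cells without Cd5 reads. In shLuc #2 it had 8900 (780 to 19723) and 3667 (796 to 27461), in shCTCF #1 7016 (697 to 14961) and 7627 (1934 to 11100), and in shCTCF #2 6061 and, for 2 cells, 3142. In shLuc #1, 7 of the 10 cells without Cd5 reads lay above 10000, against 2 of the 14 with them. Both classes of each culture but shCTCF #2 thus held cells with high and with low sums, and the share of each differed. The part of this in the differences of other genes was not tested.

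**Figure D5:**
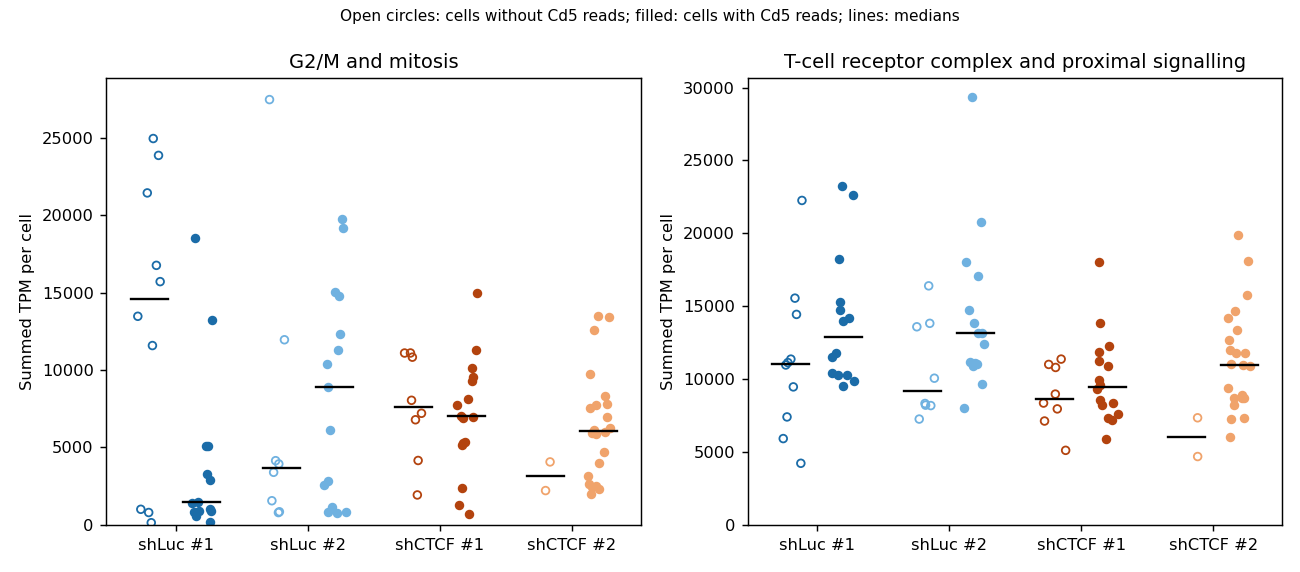
Summed TPM per cell of 53 genes of G2/M and mitosis (left) and 37 genes of the TCR complex and proximal signalling (right), by culture, open for cells without and filled for cells with Cd5 reads, with medians as lines. The medians for G2/M are 14589 and 1454 in shLuc #1 and 3667 and 8900 in shLuc #2, while the ranges of the classes overlap.

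Among single mitotic genes, Cks2, a subunit that binds cyclin-dependent kinases, kept 1 sign in the 3 cultures. Mean levels were 392 and 192 in shLuc #1, 383 and 212 in shLuc #2, and 251 and 196 TPM in shCTCF #1, but 76.4 and 211 in shCTCF #2 (-0.74 ± 0.23, SE, unadjusted p = 0.023). Ube2c, which charges the anaphase-promoting complex with ubiquitin, had 1139 and 266, 449 and 378, and 722 and 506, but 129 and 501 in shCTCF #2. Within the cells with Cd5 reads, rho of the summed G2/M TPM with the Cd5 level was -0.40 over 14 cells of shLuc #1, -0.13 over 15 of shLuc #2, -0.59 over 16 of shCTCF #1 and -0.45 over 22 of shCTCF #2. These 4 values share a sign although the class differences do not. Over all cells of each culture, in the same order, rho of that sum with genes detected was 0.54, 0.32, -0.10 and 0.56. Among cells with Cd5 reads, rho of the Cd5 level with genes detected was -0.28, 0.29, 0.25 and -0.34. The part of genes detected in the 4 values was not tested. Over 45 genes of G1/S and DNA replication the median was 0.16, with -0.35 in shLuc #1, 0.50 in shLuc #2 and 0.18 in shCTCF #1. As the mean over cells of log2(TPM + 1) it was 0.23 beside 0.11 over all genes. It was -0.31 beside 0.00 with genes detected regressed out, and 0.80 beside 0.39 with all 4 cultures. Pold1, the catalytic subunit of polymerase delta, and Chaf1a, a chromatin assembly factor, had the lowest unadjusted p of that list, with differences of 1.64 ± 0.70 and 1.57 ± 0.69 (SE).

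Genes of MHC class I presentation had a small and even difference. Of 20 genes, 17 had a difference above 0 and 3 below, beside 59.5% above 0 over all genes. The median was 0.27, beside 0.16 over all genes. By culture it was 0.22, 0.33 and 0.20, beside 0.00, 0.11 and 0.07. With cells thinned to 80000 reads it was 0.26 beside 0.16, with 13 above 0 and 6 below. As the mean over cells of log2(TPM + 1) it was 0.37 beside 0.11 over all genes, with 17 above 0. With genes detected regressed out it was 0.11 beside 0.00, with 14 above 0. B2m, the light chain of class I molecules, had mean TPM of 6004 and 8405 in shLuc #1, 5539 and 8043 in shLuc #2, 5131 and 5718 in shCTCF #1, and 3850 and 6717 in shCTCF #2 (0.39 ± 0.12, SE, unadjusted p = 0.022). H2-K1, a heavy chain whose close paralogs share reads that were not counted, had 1463 and 1781, 1230 and 1488, and 1264 and 1812, but 1724 and 1407 in shCTCF #2. Psmb8, a subunit of the immunoproteasome, had differences of 0.69, 0.19 and 0.42, while the median of 37 proteasome subunits was -0.06 with 16 above 0. As the mean over cells of log2(TPM + 1) the proteasome median turned to 0.31 with 25 above 0, and to 0.78 with 33 above 0 when all 4 cultures were used.

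Glycolytic enzymes lay on the other side in the 3 cultures, but not when all 4 were used. Of 18 genes, 14 had a difference below 0 and 4 above, with a median of -0.11, and -0.03, -0.17 and -0.11 by culture. In shCTCF #2 it was 1.03, beside 1.00 over all genes. With genes detected regressed out it was -0.20, with 13 below 0. With all 4 cultures it was 0.22 beside 0.39 over all genes, with 12 above 0. As their mean over cells of log2(TPM + 1) it was 0.33 beside 0.19, with 15 above 0. Pfkl, the liver form of phosphofructokinase, had mean TPM of 698 and 519 in shLuc #1, 639 and 417 in shLuc #2, 693 and 387 in shCTCF #1, and 461 and 335 in shCTCF #2 (-0.63 ± 0.17, SE, unadjusted p = 0.015). Pfkl was lower in cells with Cd5 reads in 4 of 4 cultures. Gapdh, often taken as a reference, had 1146 and 896, 1236 and 1054, and 1006 and 836, but 912 and 1044 in shCTCF #2 (-0.28 ± 0.13, SE).

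Lists of growth and housekeeping genes had medians between -0.04 and 0.06, beside 0.16 over all genes. The median was 0.04 over 87 cytosolic ribosomal proteins, -0.03 over 77 mitochondrial ribosomal proteins, 0.06 over 72 ribosome biogenesis factors, -0.04 over 76 genes of oxidative phosphorylation, 0.04 over 22 of cholesterol synthesis and 0.01 over 17 of heat shock. The place of such a list beside all genes depended on the scale, since ribosome biogenesis factors had 0.24 with 50 of 72 above 0 as the mean over cells of log2(TPM + 1), beside 0.11 over all genes. Rpl22l1, a paralog of the ribosomal protein L22, had the lowest unadjusted p of the cytosolic list, with differences of 1.08, 0.85 and 0.86, and 0.87 in shCTCF #2 (0.93 ± 0.29, SE, unadjusted p = 0.026). Its mean TPM was 50.9 and 109 in shLuc #1, 101 and 183 in shLuc #2, and 35.6 and 65.4 in shCTCF #1. Other members with the lowest unadjusted p of their lists were found in fewer cells, among them Rrp36 and Rrp9 of ribosome biogenesis with 1.94 and 1.29, and Mrps18b and Mrpl2 of the mitochondrial ribosome with 2.02 and -2.25.

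One gene from the myeloid markers, Fcer1g, had a large difference. Fcer1g encodes the common gamma chain of Fc receptors, a signalling subunit related to the CD3 zeta chain. It was found in 29 of 67 cells with and 5 of 28 without Cd5 reads. The highest TPM was 7670 with and 10.6 without Cd5 reads in shLuc #1, 1650 and 330 in shLuc #2, and 4601 and 320 in shCTCF #1, and in shCTCF #2 it was found in 9 of 22 and 0 of 2 cells (4.58 ± 1.24, SE, unadjusted p = 0.015). Of the 8 myeloid markers, Lyz2, Mpo and Cd14 were at 0 in every cell, Csf1r was found in 2 cells and Spi1 in 1, while Cd68 was found in 16 of 67 cells with and 4 of 28 without Cd5 reads and Itgam in 3 and 2. The summed TPM of these markers ran from 0 to 7758 with and from 0 to 475 without Cd5 reads, and was 0 in cells of both classes in each culture. All 7 B-cell markers together summed to at most 136 TPM in any cell.

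The neighbourhood of Cd5 had a fitted median close to that of all genes, and its place beside all genes depended on the setting. Of 24 listed genes within 250 kb of Cd5, 15 were expressed enough to be tested, of which 12 had a difference above 0 and 3 below, with a median of 0.23, and 0.00, 0.46 and 0.26 by culture. As the mean over cells of log2(TPM + 1) the median was 0.24 beside 0.11 over all genes, with 12 above 0. With genes detected regressed out it was 0.01 beside 0.00, with 8 above 0. With all 4 cultures it was 0.91 beside 0.39, with 12 above 0. The differences ran from -2.14 for Tkfc to 2.16 for Tmem216, which overlaps Cpsf7 on the other strand. Tmem109, a membrane protein gene at chr19:10870660-10882001, had the lowest unadjusted p, 0.031. The means were 45.03 and 107 TPM in shLuc #1, 3.31 and 35.5 in shLuc #2, and 69.3 and 130 in shCTCF #1, but 251 and 181 in shCTCF #2. Whether counting used the strand is not given in the sources used here, so reads of overlapping genes could be mixed.

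Ctcf, the target of the knockdown, had no common difference between the classes. Its mean TPM was 87.8 without and 40.7 with Cd5 reads in shLuc #1, 10.4 and 51.3 in shLuc #2, 15.5 and 16.2 in shCTCF #1, and 43.7 and 45.01 in shCTCF #2, so the shLuc cultures pointed in opposite directions (0.39 ± 0.77, SE). The mean of Ctcf in shCTCF #2 lay between those of the shLuc cultures in both classes. Of 15 genes of Ctcf, cohesin and the loader, 7 had a difference above 0, with a median of -0.04. Mau2, part of the cohesin loader, had differences of 0.87, 1.04 and 0.68, and 0.57 in shCTCF #2 (0.87 ± 0.41, SE). Rad21, a core cohesin subunit, had -1.23, -0.44 and 0.08. The difference between classes was also compared between conditions. With 1 shCTCF culture against 2 shLuc cultures, the interaction term of limma called 0 of 11979 genes, with a smallest adjusted p of 0.981 and 549 genes at an unadjusted p under 0.05.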

How the data were processed

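Single-cell RNA-seq libraries of 96 EL4 cells were made on Fluidigm C1 circuits with the SMARTer protocol. STAR v.2.5.2 was used by the authors for alignment to GRCm38.89, unique reads were counted with HTSeq v.0.9.1 on 24057 RefSeq genes, and TPM were deposited with no cell filtered out. TPM values have the same sum in each cell, so a large gene lowers the others. Reads per cell (41591 to 405404) were recovered from the steps that TPM values of a gene share across cells, for depth and thinning only. Of 504524 values above 0 checked, 100% were whole within 0.001 reads. That was fixed in advance for the 1336 genes with a value in 1 cell only, and it held for all 9602 genes with values in at least 10 cells. The largest step that fits was taken, so a gene whose reads share a factor would be given too few.

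The count model that the study names was not used, since the deposited unit is TPM. Instead, limma 3.58.1 (R 4.3.3, eBayes with trend, Benjamini-Hochberg at 0.05) was run on log2(mean TPM + 1) of each culture and class, with culture as a block, since both classes come from the same culture. The p-values of limma measure how the difference between the classes varied between the 3 cultures, with a variance moderated across genes. The level of a culture is taken out by the block. A culture entered if each class held at least 3 cells, which left out shCTCF #2. Genes had log2(TPM + 1) above 1 in at least 2 cells. One measure per culture was compared by an exact permutation test (Python 3.11.15, scipy 1.17.1). The fits were tested on simulated data. Alternatives are given in the closing section, and those with all 4 cultures were added after the data were seen.

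The classes and the 23 gene lists were chosen with earlier results of these data known. Genes named are Cd5, Ctcf, Gapdh, Cd6 and those of the paper's text, the 10 highest and 10 lowest statistics among genes found in at least 20 cells, up to 2 genes of the lowest unadjusted p per list, and neighbours within 250 kb, of which not all are reported here. Positions are from GENCODE M21.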

Additional observations from a re-analysis of the deposited data

Results flagged for a closer look

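A pair of single cells stood apart from the others of their group. Among the 8 cells of shLuc #2 without Cd5 reads, 1 had 405404 recovered reads, and 1 had a summed TPM of 27461 for G2/M genes, each far above the next. Chance alone would mark about 1 in 20 of the 13 groups looked at.

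Some differences between the classes had opposite signs in the shLuc and the shCTCF cultures, and none of these contrasts was tested on its own. Each value is the mean difference of the shCTCF cultures minus that of the shLuc cultures, and each includes the 2 cells without Cd5 reads of shCTCF #2. For recovered reads per cell it was 47717. For Egr1 it was -2.22, from 0.68 and 0.56 in shLuc and -1.11 and -2.10 in shCTCF. For the neighbours of Cd5 it was 4.51 for Tkfc and 3.29 for Ddb1. For list medians it was 1.83 for the 2 tested B-cell markers, 0.61 for mitochondrial ribosomal proteins and 0.60 for proteasome subunits, beside 0.48 for the median over all genes tested. Of 79 genes looked at, 3 had such opposite signs.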

How the results depend on the processing

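In each of the 17 alternatives limma called 0 genes higher and 0 lower, with smallest adjusted p of 0.318 to 0.927. Without the block that pairs the classes of a culture (no replicate block) the calls were 0 and 0 and the unadjusted counts 381 and 81. With all 4 cultures the unadjusted counts were 672 and 49 and the median over all genes 0.39, and with cells as replicates and genes detected as a covariate they were 274 and 415. The interaction could not be fitted with a culture left out. Cells with Cd5 reads were 70.5% of the cells, 66.3% at a TPM of 10 or more and 65.96% after thinning, and the mean difference in genes detected was 372 to 766.5 under the alternatives with all cultures and 449 to 936.5 with 1 culture left out. Of 950 values of 56 genes, 918 kept their sign, and the 32 others belonged to 7 genes, for which the cause was not tested. Egr1 was 0.05 and became -0.70 as the mean of log2(TPM + 1), -0.67 with genes detected regressed out, -0.65 with cells as replicates, -0.74 with genes detected as a covariate, -0.49 with all 4 cultures, -0.91 with their cells as replicates and -1.33 as their mean of log2(TPM + 1), and ran from -0.27 to 0.62 with a culture left out. In the same order Gata3 was 0.12, 0.057, 0.12, 0.058, 0.25, 0.26 and 0.45, with 0.0070 at a border of 10 TPM and -0.31 to 0.13 with a culture left out. Ctcf was -0.082 with genes detected regressed out, -0.38 with them as a covariate, -0.11 as the mean of log2(TPM + 1) over 4 cultures and -0.52 to 1.13 with a culture left out. Cd6 was -0.061 at a pseudocount of 10, -0.012 with genes detected as a covariate and -0.68 to 2.03 with a culture left out. With all 4 cultures, and as their mean of log2(TPM + 1), Eif2d was 0.59 and 0.027, Ddb1 0.91 and 0.74, and Tox 0.029 for the mean. Ddb1 ran from -0.74 to 0.26 with a culture left out. Depth limits the classes, since a cell at 0 allows up to 72.1 RPM of Cd5 (28.7 without the shallowest cell).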
